A study of Mus musculus with 33 samples.

Results

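The genes described here are 10 genes of the ATF4 and amino acid stress response, Atf4, Ddit3, Atf3, Trib3, Nupr1, Asns, Psat1, Phgdh, Chac1 and Sesn2, in mouse cells treated with the compound RepSox and in untreated cells. They were a named list matched by gene symbol, and all 10 were found on the main array platform, where they are 10 of 10614 genes measured. All 10 also had a probe on the platform used for the induced pluripotent stem (iPS) cells. Total RNA was measured on 33 Illumina bead arrays in 11 groups of 3. OKMS6, a partially reprogrammed line derived from virally transduced mouse embryonic fibroblasts (MEFs) and labelled as carrying viral Sox2, was treated with RepSox, an inhibitor of the TGF-beta type I receptor kinase, for 10 h, 24 h or 48 h, with untreated OKMS6 cells at each time. MEFs were treated with RepSox for 1 week and set against untreated MEFs, whose time in culture the labels do not give. The remaining groups were the embryonic stem cell lines R1 and V6.5 and an iPS line derived with RepSox in place of viral Sox2. OKMS6 is 1 line, the labels do not say which cultures had feeder cells or serum, and no label calls the replicates independent cultures. The p-values may then reflect array-to-array spread of technical origin alone.

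ATF4 is a transcription factor whose protein is made when stress kinases phosphorylate the translation factor eIF2 alpha, for example when amino acids run short or proteins misfold in the endoplasmic reticulum. It binds composite C/EBP-ATF elements at genes for the synthesis and uptake of amino acids, the charging of transfer RNAs and the control of the response itself. Because much of this control acts on translation and protein, the Atf4 transcript is one part of the response, and the arrays measured RNA only.

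The promoters of the 4 members that passed the test with RepSox in OKMS6 cells and in MEFs, Chac1, Nupr1, Trib3 and Asns, are printed here because each holds the 8 letters TGATGNAA or their reverse TTNCATCA, a form of the amino acid response core. The motif was searched on both strands in RefSeq windows of 250 bases before to 50 after each gene's start (GRCm38.p6), and its letters are in capitals. The windows are chr2:119350992-119351291 on the plus strand for Chac1, chr7:126625421-126625720 on the minus strand for Nupr1, chr2:152344011-152344310 on the minus strand for Trib3 and chr6:7693160-7693459 on the minus strand for Asns.
Chac1: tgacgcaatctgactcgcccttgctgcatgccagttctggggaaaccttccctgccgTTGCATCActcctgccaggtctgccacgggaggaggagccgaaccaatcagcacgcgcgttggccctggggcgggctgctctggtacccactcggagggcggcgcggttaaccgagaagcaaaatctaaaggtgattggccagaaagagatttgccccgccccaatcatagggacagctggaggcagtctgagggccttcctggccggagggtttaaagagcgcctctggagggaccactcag
Nupr1: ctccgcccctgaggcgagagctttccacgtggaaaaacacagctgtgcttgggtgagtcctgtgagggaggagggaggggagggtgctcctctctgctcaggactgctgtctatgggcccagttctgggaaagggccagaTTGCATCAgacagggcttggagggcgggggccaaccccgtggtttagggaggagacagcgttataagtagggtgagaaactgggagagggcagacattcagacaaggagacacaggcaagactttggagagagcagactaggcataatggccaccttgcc
Trib3: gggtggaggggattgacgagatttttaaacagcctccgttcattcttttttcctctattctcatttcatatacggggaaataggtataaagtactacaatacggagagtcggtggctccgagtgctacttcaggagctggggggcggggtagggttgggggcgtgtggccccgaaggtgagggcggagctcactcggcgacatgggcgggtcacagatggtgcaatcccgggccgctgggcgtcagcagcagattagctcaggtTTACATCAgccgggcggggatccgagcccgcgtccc
Asns: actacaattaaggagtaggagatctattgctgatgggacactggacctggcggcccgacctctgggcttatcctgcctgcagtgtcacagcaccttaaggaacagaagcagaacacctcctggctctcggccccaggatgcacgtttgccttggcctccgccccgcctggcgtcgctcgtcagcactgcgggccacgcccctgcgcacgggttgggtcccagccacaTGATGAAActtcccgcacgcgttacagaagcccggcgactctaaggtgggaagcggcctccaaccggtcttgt
The match began 193 bases before the start site in Chac1, 110 before it in Nupr1, 23 before it in Asns and 14 bases after it in Trib3. Atf3 also held a match, 110 bases before its start, and Atf4, Ddit3, Psat1, Phgdh and Sesn2 held none in their windows, so 5 of the 10 members had one. Over all genes with a window, 1219 of 27025 held a match (4.51%). Among other genes of the pathway with a window, a match was found in 5 of 12 aminoacyl-tRNA synthetase genes, 2 of 7 amino acid transporter genes, 2 of 11 enzymes of serine, glycine, proline and one-carbon metabolism and 2 of 13 other ATF4 targets and feedback genes. It was found in 1 of 11 relatives of the members, 1 of 17 genes of the ATF6 and XBP1 arms of the unfolded protein response and 0 of 7 eIF2 alpha kinases and phosphatases. These matches describe the letters in the windows and were not tested as binding sites.

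Levels are normalized log2 intensities, a gene is represented by 1 probe, and a change counts as called at a Benjamini-Hochberg adjusted p under 0.05 over all 10614 genes (limma). V6.5 arrays 1 and 3 stood apart from V6.5 array 2, with mean signals of 66.6 and 79.5 against 329. They detected 31.4% and 28.7% of probes against 47.3%. MEF arrays were also low in mean signal, 94.9 to 102 untreated and 100 to 113 with RepSox, but detected 45.3% to 52.0% of probes. R1 arrays had 374 to 429 and untreated OKMS6 arrays 194 to 327, so comparisons of these cells with MEFs span a gap in signal. Replicate arrays correlated at 0.828 to 0.928 in V6.5 and at 0.985 or more in every other group. V6.5 arrays 1 and 3 enter the pooled error of each gene, so results that depend on them are also given without them. In the processed table that the authors deposited, the columns of replicate 3 of the RepSox-treated and the untreated OKMS6 cells at 48 h each carry the other's scanner values, so 48 h results under the scanner table's names are also given without both arrays. Under the scanner table's names, replicate arrays at 48 h correlated at 0.994 to 0.997 in untreated and at 0.996 to 0.997 in treated OKMS6 cells. The labelled cell types were checked on marker lists. R1 detected 10 of 10 pluripotency markers and untreated MEFs 9 of 9 fibroblast markers. R1 and V6.5 each detected 7 of those 9 fibroblast markers as well, so detection alone does not set MEFs apart. Summed linear intensities of the fibroblast markers were 399.9 to 422 in R1, 965.6 to 1423 in V6.5 and 9603 to 10370 in untreated MEFs. Untreated OKMS6 cells detected 7 of the 10 pluripotency markers at 10 h, 7 at 24 h and 9 at 48 h. They did not detect Esrrb at any time or Nanog at 10 h and 24 h. Fewer cells of a type and less RNA per cell cannot be told apart in these bulk samples.

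**Figure D1:**
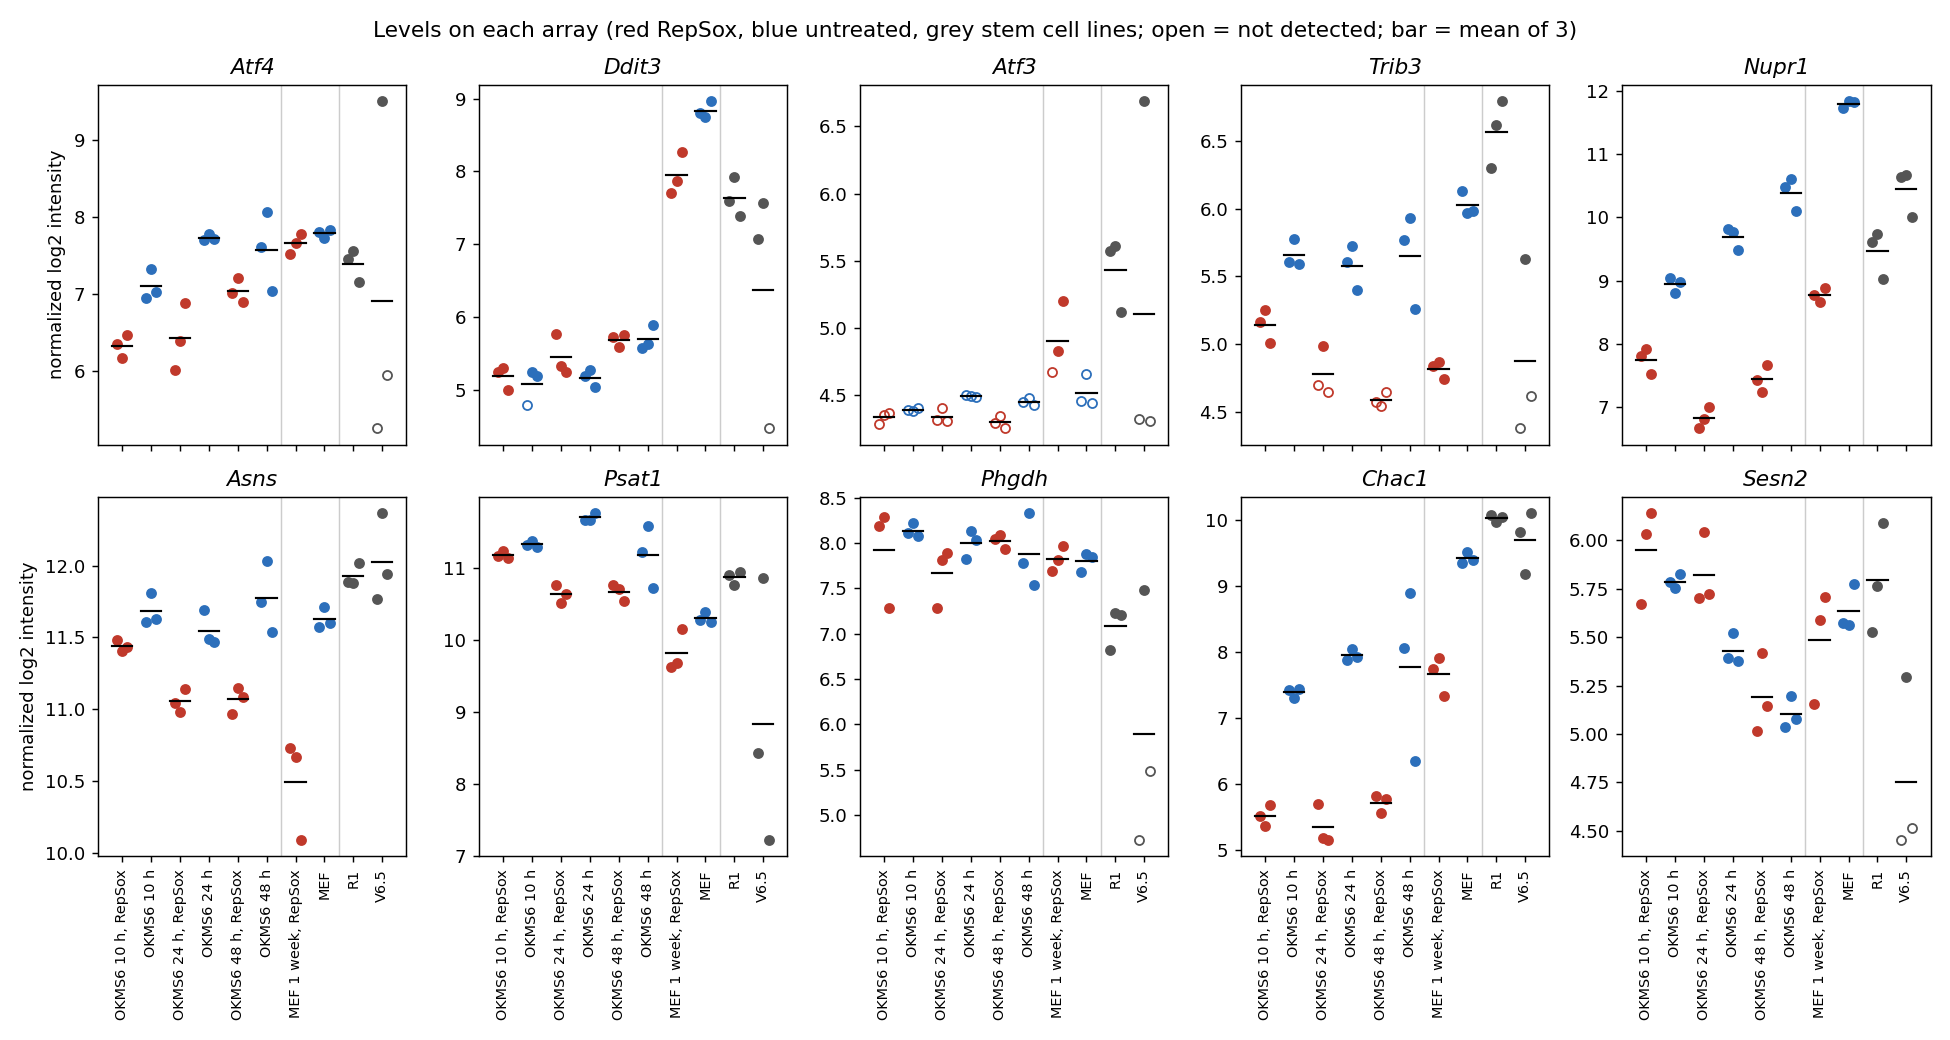
Normalized log2 intensity of each of the 10 genes on each of the 30 arrays of the main platform, by group, with RepSox-treated groups in red, untreated groups in blue and stem cell lines in grey. Open points were not detected, bars are means of 3 arrays, and the treated arrays lie below the untreated ones at every time for Nupr1 and Chac1.

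Nupr1 and Chac1 were lower with RepSox in OKMS6 cells at 10 h, and at 24 h and 48 h Trib3 and Asns were lower as well. The same 4 genes were lower in MEFs after 1 week. With all arrays in the fit and no array weights, no member rose in any of the 4 comparisons at the threshold. At an unadjusted p under 0.05 only Sesn2 at 24 h was higher in that fit. The absence of rises did not hold in every fit. Without V6.5 arrays 1 and 3, Atf3 was called higher in MEFs (0.40, limma adjusted p = 0.0119). With limma array weights 1 member was called higher at 24 h. Of the 10 members 2 fell at 10 h, where 1.35% of all genes fell and 2.53% rose (3.88% in either direction). At 24 h 4 fell, where 3.50% of all genes fell and 5.68% rose (9.18%), and 3 fell without untreated array 3 or treated array 2 and 2 when any 1 of the other 4 arrays was left out. At 48 h 4 fell, where 9.03% of all genes fell and 6.94% rose (16.0%), and in MEFs 4 fell, where 7.80% fell and 7.35% rose (15.1%). The median log2 change over the 10 members was -0.23 at 10 h, -0.65 at 24 h, -0.52 at 48 h and -0.69 in MEFs, beside 0.00 at 10 h, 0.00 at 24 h, 0.00 at 48 h and -0.02 in MEFs over all genes. The 3 OKMS6 comparisons use different arrays, and the MEF comparison shares none with them. All 4 use the same pooled error for each gene, so their p-values are not independent.

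Nupr1 encodes a small stress-induced chromatin protein that takes part in the transcriptional response to stress. Its level in OKMS6 cells at 10 h was 7.81, 7.91 and 7.52 with RepSox, against 9.03, 8.80 and 8.98 untreated. At 24 h it was 6.66, 6.81 and 6.99 with RepSox, against 9.82, 9.78 and 9.48 untreated. At 48 h it was 7.42, 7.24 and 7.66 with RepSox, against 10.48, 10.61 and 10.10 untreated. Every treated array lay below every untreated array at each time. The log2 change was -1.19 ± 0.19 at 10 h (SE, n = 3 each, limma adjusted p = 2.67e-04), -2.87 ± 0.19 at 24 h (limma adjusted p = 6.5e-11) and -2.96 ± 0.19 at 48 h (limma adjusted p = 1.45e-11), or 2.29-fold, 7.31-fold and 7.76-fold lower. The 10 h call was lost under median scaling (limma adjusted p = 0.0658). In MEFs the level was 8.78, 8.65 and 8.88 with RepSox, against 11.73, 11.84 and 11.83 untreated. Those groups did not overlap either, and the log2 change was -3.03 ± 0.19 (limma adjusted p = 5.69e-12), 8.16-fold lower.

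With all arrays in the fit, the RepSox effect of 1 member differed between the times in OKMS6 cells. A moderated F test over the 3 times called Nupr1 (limma adjusted p = 5.38e-05) and none of the other 9 members, where 8.80% of all genes were called. The change was larger at 24 h than at 10 h by -1.68 ± 0.27 on the log2 scale (limma adjusted p = 9.44e-04), and the change at 48 h differed from that at 24 h by -0.09 ± 0.27 (limma adjusted p = 0.982). Between 10 h and 24 h 0.678% of all genes changed their effect, and between 24 h and 48 h 6.66% did. Without V6.5 arrays 1 and 3 the F test also called Psat1 (limma adjusted p = 0.0051), whose effect at 24 h differed from that at 10 h by -0.91 (0.0106), where 26.5% of all genes were called. In that fit the Atf4 effect at 48 h differed from that at 24 h by 0.78 (limma adjusted p = 0.0423), and its F test had 0.0826. Untreated OKMS6 cells also moved. Their Nupr1 averaged 8.94 ± 0.12 at 10 h, 9.69 ± 0.18 at 24 h and 10.39 ± 0.27 at 48 h (SD, n = 3), and it rose by 0.75 ± 0.19 between 10 h and 24 h (limma adjusted p = 0.0329) and by 0.70 ± 0.19 between 24 h and 48 h (limma adjusted p = 0.0122). In these untreated cells 1.94% of all genes differed between 10 h and 24 h and 13.4% between 24 h and 48 h. Treated cells averaged 7.74 ± 0.20 at 10 h, 6.82 ± 0.17 at 24 h and 7.44 ± 0.21 at 48 h.

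Chac1 encodes an enzyme that degrades glutathione. Its level in OKMS6 cells at 10 h was 5.52, 5.37 and 5.68 with RepSox, against 7.42, 7.30 and 7.44 untreated. At 24 h it was 5.70, 5.18 and 5.15 with RepSox, against 7.88, 8.05 and 7.92 untreated. At 48 h it was 5.82, 5.56 and 5.78 with RepSox, against 8.06, 8.89 and 6.34 untreated. No treated array reached an untreated one, although replicate 3 of the untreated cells at 48 h lay well below the other two. The log2 change was -1.86 ± 0.36 at 10 h (limma adjusted p = 0.00225), -2.60 ± 0.36 at 24 h (limma adjusted p = 1.37e-05) and -2.04 ± 0.36 at 48 h (limma adjusted p = 1.62e-04), or 3.64-fold, 6.08-fold and 4.13-fold lower. Without both 48 h arrays numbered 3 the 48 h change was -2.77 (limma adjusted p = 8.24e-08). In MEFs the level was 7.74, 7.91 and 7.34 with RepSox, against 9.34, 9.51 and 9.39 untreated, with no overlap. The log2 change there was -1.75 ± 0.36 (limma adjusted p = 8.61e-04), 3.36-fold lower.

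Trib3 encodes a pseudokinase that binds ATF4 and restrains it. Its level in OKMS6 cells at 24 h was 4.69, 4.99 and 4.65 with RepSox, against 5.60, 5.72 and 5.40 untreated. Only array 2 of the treated cells detected it. At 48 h it was 4.57, 4.54 and 4.64 with RepSox, where no array detected it, against 5.77, 5.93 and 5.26 untreated. The log2 change was -0.80 ± 0.21 at 24 h (limma adjusted p = 0.0169) and -1.07 ± 0.21 at 48 h (limma adjusted p = 7.73e-04), at least 1.83-fold lower, a lower bound because the treated level was below detection. At 10 h Trib3 was 5.16, 5.25 and 5.01 with RepSox, against 5.61, 5.78 and 5.59 untreated, groups that did not overlap but whose difference of -0.52 ± 0.21 was not called (limma adjusted p = 0.26). Without the 2 dim V6.5 arrays it was called (-0.53 ± 0.14, limma adjusted p = 0.0126). In MEFs it was 4.84, 4.87 and 4.74 with RepSox, against 6.13, 5.97 and 5.98 untreated. That change of -1.21 ± 0.21 was called (limma adjusted p = 1.66e-04), 2.32-fold lower. The 24 h call was lost without untreated array 1 or 2 or treated array 1 or 3, with a limma adjusted p between 0.0222 and 0.0844 over the 6 fits that left out 1 array.

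**Figure D2:**
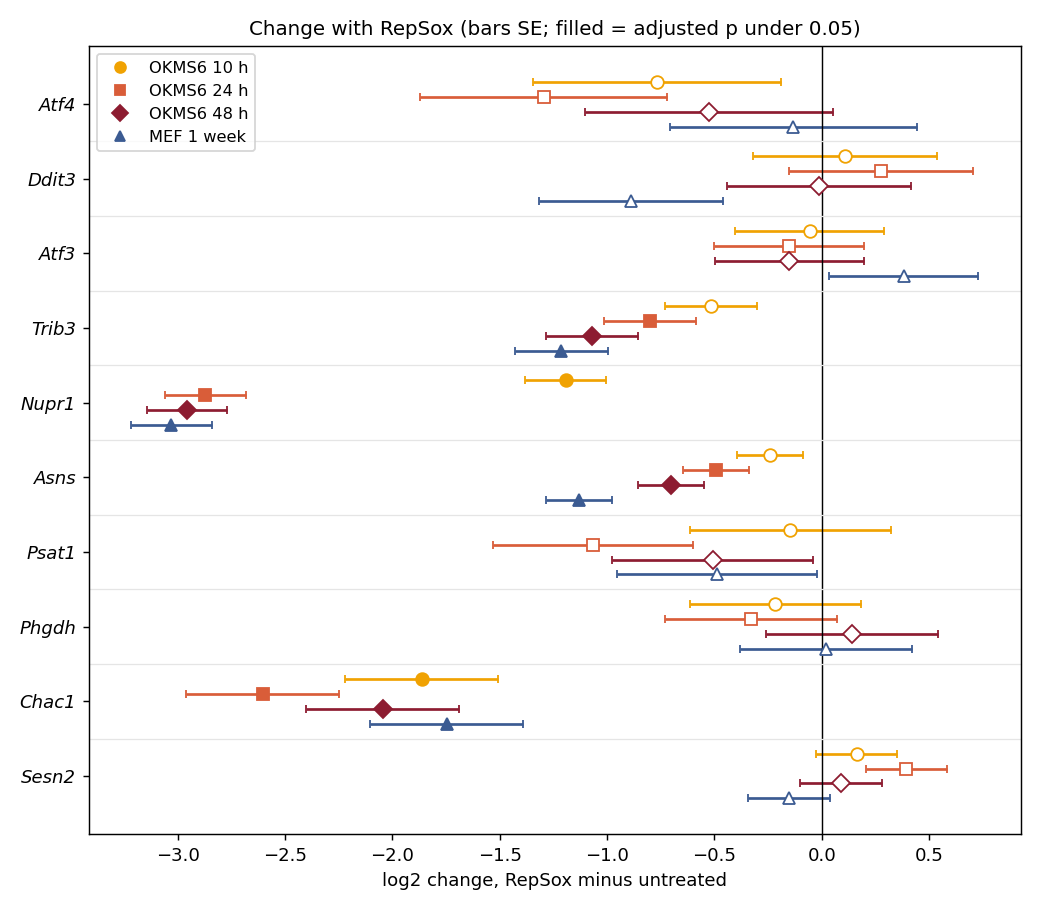
Log2 change with RepSox (treated minus untreated, with SE) of each gene at 3 times in OKMS6 cells and at 1 week in MEFs. Filled symbols have an adjusted p under 0.05, and all filled symbols lie below 0.

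Asns encodes asparagine synthetase, which makes asparagine from aspartate and glutamine. In MEFs its level was 10.73, 10.67 and 10.09 with RepSox, against 11.57, 11.71 and 11.60 untreated. The change of -1.13 ± 0.15 (limma adjusted p = 4.90e-06) was 2.19-fold lower, and the groups did not overlap. At 48 h in OKMS6 cells it was 10.97, 11.15 and 11.09 with RepSox, against 11.75, 12.03 and 11.53 untreated. This change was -0.70 ± 0.15 (limma adjusted p = 0.00183), 1.63-fold lower. At 24 h it was 11.05, 10.98 and 11.14 with RepSox, against 11.69, 11.49 and 11.47 untreated, also without overlap. The 24 h change of -0.49 ± 0.15 had a limma adjusted p of 0.0456, and it was lost in each of the 6 fits that left out 1 array (0.0555 to 0.189). At 10 h the groups did not overlap, and the difference of -0.24 ± 0.15 was not called (limma adjusted p = 0.713). The 2 other Asns probes had changes of the same sign, -0.57 and -0.67 at 48 h and -1.18 and -0.71 in MEFs. With the mean over all 3 probes the 48 h change was not called (limma adjusted p = 0.125), nor was it under median scaling (0.255).

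Atf4 itself did not pass the test in any of the 4 comparisons with all arrays in the fit, and its SE was 0.58. At 24 h in OKMS6 cells its level was 6.02, 6.39 and 6.89 with RepSox, against 7.70, 7.78 and 7.71 untreated. Those groups did not overlap, and the difference was -1.30 (limma adjusted p = 0.202). At 10 h it was 6.35, 6.17 and 6.48 with RepSox, against 6.95, 7.33 and 7.03 untreated, again without overlap, a difference of -0.77 (limma adjusted p = 0.831). At 48 h the values were 7.02, 7.21 and 6.90 with RepSox, against 7.61, 8.06 and 7.04 untreated, and the groups overlapped (-0.53, limma adjusted p = 0.711). In MEFs they were 7.52, 7.67 and 7.78 with RepSox, against 7.81, 7.73 and 7.83 untreated, and also overlapped (-0.13, limma adjusted p = 0.998). The V6.5 arrays gave Atf4 levels of 5.26, 9.50 and 5.95, with the first and the third not detected, while the SD in the other groups was 0.05 to 0.51.

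Psat1, the aminotransferase of the serine pathway, had the same kind of spread in V6.5 (8.44, 10.86 and 7.22) and an SE of 0.47. At 24 h in OKMS6 cells its level was 10.78, 10.52 and 10.64 with RepSox, against 11.68, 11.68 and 11.77 untreated, with no overlap. The difference was -1.06 (limma adjusted p = 0.195). At the other times and in MEFs its differences were -0.15 at 10 h, -0.51 at 48 h and -0.49 in MEFs, none of them called.

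Leaving out V6.5 arrays 1 and 3 changed the error of these 2 genes. The SE for Atf4 dropped to 0.19 and that for Psat1 to 0.15, with nearly the same differences. Atf4 was then lower with RepSox at 10 h (-0.78, limma adjusted p = 0.00696), 24 h (-1.31, limma adjusted p = 1.13e-05) and 48 h (-0.53, limma adjusted p = 0.036), and not called in MEFs (-0.13, limma adjusted p = 0.695). Psat1 was then lower at 24 h (-1.06, limma adjusted p = 4.51e-06), 48 h (-0.50, limma adjusted p = 0.00869) and in MEFs (-0.49, limma adjusted p = 0.0127). The counts of members that fell became 4 at 10 h, 6 at 24 h, 6 at 48 h and 6 in MEFs. More of all genes were called as well, 12.7% at 10 h, 24.2% at 24 h, 32.7% at 48 h and 28.5% in MEFs, in either direction.

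**Figure D3:**
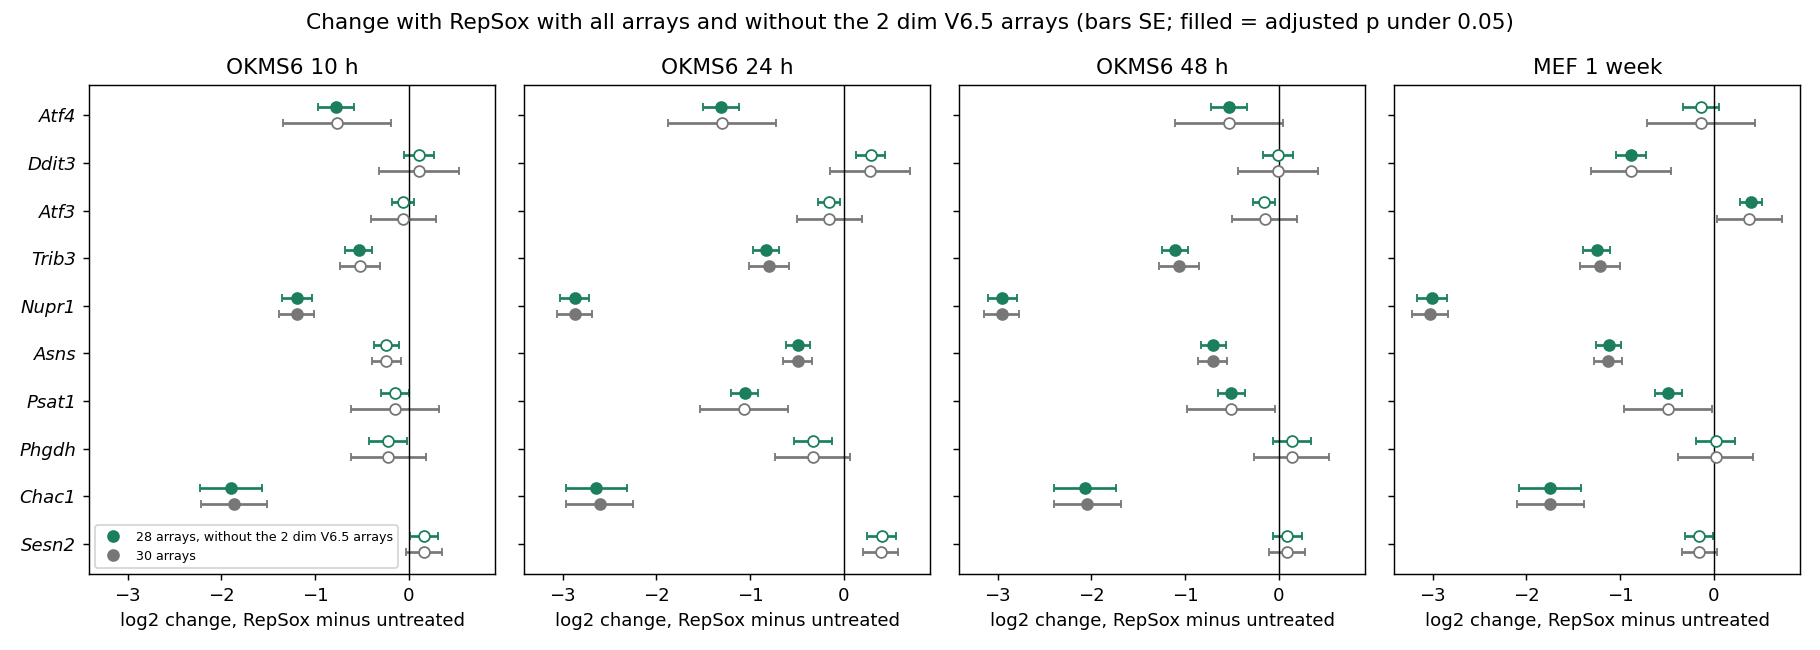
Log2 change with RepSox (with SE) of each gene in the 4 comparisons, without the 2 dim V6.5 arrays in green and with all 30 arrays in grey. Filled symbols have an adjusted p under 0.05, and the positions nearly coincide while the bars of Atf4, Ddit3, Atf3 and Psat1 are shorter without the 2 arrays.

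Ddit3 and Atf3, both genes of stress-induced transcription factors, were not called with RepSox with all arrays in the fit. Ddit3 encodes CHOP, a partner of ATF4 and C/EBP proteins. In MEFs its level was 7.71, 7.87 and 8.27 with RepSox, against 8.80, 8.75 and 8.96 untreated, with no overlap, a difference of -0.89 ± 0.43 (limma adjusted p = 0.213). Without the 2 dim V6.5 arrays it was called there (-0.89 ± 0.16, limma adjusted p = 8.73e-05). In OKMS6 cells Ddit3 differed by 0.11 at 10 h, 0.28 at 24 h and -0.01 at 48 h, with none called in either fit and levels between 4.80 and 5.90 on all 18 arrays. Atf3 was detected on 6 of the 30 arrays, namely 3 R1 arrays, V6.5 array 2 and arrays 2 and 3 of the treated MEFs. It was detected on no OKMS6 array. In MEFs its level was 4.68, 4.83 and 5.20 with RepSox, against 4.46, 4.66 and 4.44 untreated, where no array detected it. That difference, at least 1.07-fold because the untreated level was below detection, was not called (limma adjusted p = 0.665), and without the 2 dim V6.5 arrays it was called (limma adjusted p = 0.0119).

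Phgdh, the dehydrogenase that opens the serine pathway, and Sesn2, which encodes a leucine-binding inhibitor of mTORC1 signalling, did not pass the test with RepSox in either fit. The differences of Phgdh lay between -0.33 and 0.14 and those of Sesn2 between -0.15 and 0.39. Sesn2 at 24 h was 5.70, 6.04 and 5.72 with RepSox, against 5.39, 5.52 and 5.38 untreated, groups that did not overlap (0.39 ± 0.19, limma adjusted p = 0.255). In untreated OKMS6 cells Sesn2 differed between times by the F test (limma adjusted p = 0.0324), with 5.79 ± 0.04 at 10 h, 5.43 ± 0.08 at 24 h and 5.10 ± 0.08 at 48 h (SD, n = 3). Nupr1 and Sesn2 were the 2 members of 10 called between times in untreated cells, where 20.0% of all genes were called, and the Sesn2 call was lost on leaving out any 1 of the untreated arrays at 10 h or 48 h (limma adjusted p = 0.0594 to 0.101). Without both 48 h arrays numbered 3, Chac1 was called between times (limma adjusted p = 0.00814) and Sesn2 was not (0.108). Without V6.5 arrays 1 and 3, Atf4 (limma adjusted p = 0.0217), Ddit3 (0.00342) and Psat1 (0.0137) were called as well, where 45.2% of all genes were.

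The RepSox effect in MEFs at 1 week was compared with that in OKMS6 cells at 48 h by a contrast of contrasts, and 0 of 10 members were called (limma, 0 at an unadjusted p under 0.05), where 16.0% of all genes were. For Nupr1 the difference was -0.07 ± 0.27, for Trib3 -0.14 ± 0.30, for Asns -0.43 ± 0.22 and for Chac1 0.30 ± 0.50. Without both 48 h arrays numbered 3, Chac1 differed by 1.02 (limma adjusted p = 0.049), the fall in MEFs being the smaller, and without untreated array 3 at 48 h alone by a similar size (limma adjusted p = 0.032). Without the 2 dim V6.5 arrays 2 members were called, Ddit3, lower in MEFs, and Atf3, higher in MEFs. In that fit 33.4% of all genes were called. The times of treatment differ between the cells, so time and cell type cannot be told apart here.

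Other measures moved with treatment. In treated MEFs, 5 of 5 measured adipocyte markers were higher, with a summed linear intensity of 9269 to 13910, against 355.8 to 404.4 in untreated MEFs, where Adipoq, Cebpa and Plin1 were not detected. Adipoq, Cebpa and Plin1 were detected in no other group of the main platform. They passed the filter of 3 detected arrays through the treated MEFs alone, which all but fixed their direction. On leaving out 1 treated MEF array 2 of the 5 adipocyte markers could be tested, and both were higher. The 5 smooth muscle markers summed to 19130 to 20570 in treated MEFs, against 15710 to 16660 in untreated MEFs, and 3 were higher. Of 9 fibroblast markers 4 were higher and 2 lower, with sums of 10110 to 16010 in treated and 9603 to 10370 in untreated MEFs. In OKMS6 cells 3 of 10 pluripotency markers, Nanog, Dppa5a and Gdf3, were higher and Tdgf1 was lower at both 24 h and 48 h. At 48 h those 10 summed to 2255 to 3006 with RepSox and to 3890 to 5233 untreated, and the treated arrays did not detect Esrrb or Utf1. No OKMS6 array detected an adipocyte marker. Of 5 smooth muscle markers Acta2 was higher and Mylk lower at 48 h in OKMS6 cells, with sums of 1286 to 1350 with RepSox and 437.4 to 516.1 untreated. Tagln, Myh11, Mylk and Lmod1 were detected on no treated array at 48 h, so the treated sum rests on Acta2 and not on the marker set. Mean signal at 24 h was 147 to 201 on treated arrays and 217 to 238 on untreated ones. The part of these measures in the results for the 10 genes was not tested.

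Other genes of the pathway were read from lists chosen by function, and their counts stand beside the shares of all genes that fell, 1.35% at 10 h, 3.50% at 24 h, 9.03% at 48 h and 7.80% in MEFs. Some amino acid transporters fell. Of 9 measured, 0 were called at 10 h (limma, 2 at an unadjusted p under 0.05), 3 fell at 24 h, 6 at 48 h and 4 in MEFs, and none rose. Slc6a9, a glycine transporter, was 6.16, 6.05 and 6.20 with RepSox at 48 h, against 7.90, 8.23 and 7.54 untreated (-1.75 ± 0.18, limma adjusted p = 1.24e-07), and it fell by 1.30 ± 0.18 in MEFs (limma adjusted p = 7.79e-06). Slc7a5, which carries large neutral amino acids, changed by -0.93 ± 0.21 at 24 h (limma adjusted p = 0.00411), by -1.45 ± 0.21 at 48 h (1.53e-05) and by -0.93 ± 0.21 in MEFs (0.00241). Slc1a4, a neutral amino acid exchanger, and Slc7a3, a cationic amino acid transporter, fell in the same 3 comparisons, with changes between -1.19 and -0.52. The median change of the list at 48 h was -0.57, beside 0.00 over all genes. Without both 48 h arrays numbered 3, 5 of the 9 fell at 48 h, and 1 fell at 24 h without untreated array 1 or 2.

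Enzymes of serine, glycine, proline and one-carbon metabolism were measured for 10 genes outside the members. At 10 h 1 fell, at 24 h 3, at 48 h 3 and in MEFs 4, and none rose. Mthfd2, a mitochondrial folate enzyme, fell by 0.94 ± 0.21 at 10 h (limma adjusted p = 0.00998). At 24 h it was 6.58, 6.40 and 6.66 with RepSox, against 8.05, 7.97 and 8.29 untreated, a fall without overlap (-1.56 ± 0.21, limma adjusted p = 1.4e-05). Shmt2, which makes glycine in mitochondria, fell by 1.09 at 24 h, by 0.78 at 48 h and by 0.64 in MEFs, and Aldh18a1, which starts proline synthesis, by 0.86 at 24 h, by 0.89 at 48 h and by 1.13 in MEFs. Aldh1l2, a mitochondrial formate-handling enzyme, was 5.93, 6.24 and 5.63 in treated MEFs, against 8.58, 8.72 and 8.71 in untreated MEFs (-2.74 ± 0.12, limma adjusted p = 1.57e-14). Gpt2, an alanine aminotransferase, fell at 48 h (-1.51 ± 0.23, limma adjusted p = 3.67e-05). In MEFs 2 or 3 of the 10 fell whenever 1 array was left out, and 2 fell without untreated array 2, untreated array 3 or treated array 2.

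Most aminoacyl-tRNA synthetases, which load amino acids on transfer RNAs, were not called. Of 18 measured, 0 were called at 10 h (limma, 0 at an unadjusted p under 0.05), and 3 fell at each of 24 h, 48 h and in MEFs. Of all genes 16.0% were called in either direction at 48 h and 15.1% in MEFs, so a count of 3 among 18 there is not read as a result about the list. At 24 h the 3 were Nars (-0.63) and, detected on no treated array, Yars, at least 1.10-fold lower, and Cars, at least 1.21-fold lower. At 48 h they were Gars, Iars and Sars (-0.68, -0.60 and -0.70), and in MEFs Gars, Aars and Iars (-0.70, -0.87 and -0.56). The medians were -0.13 at 10 h, -0.34 at 24 h, -0.11 at 48 h and -0.24 in MEFs. Without both 48 h arrays numbered 3, 1 fell at 48 h, and without the 2 dim V6.5 arrays 9 fell and 1 rose at 24 h and 7 fell in MEFs. Without those dim arrays 24.2% of all genes were called at 24 h and 28.5% in MEFs, in either direction. On leaving out 1 array in turn, 1 to 4 fell at 24 h (1 without treated array 2) and 1 to 3 at 48 h (1 without untreated array 1, untreated array 2 or treated array 3).

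**Figure D4:**
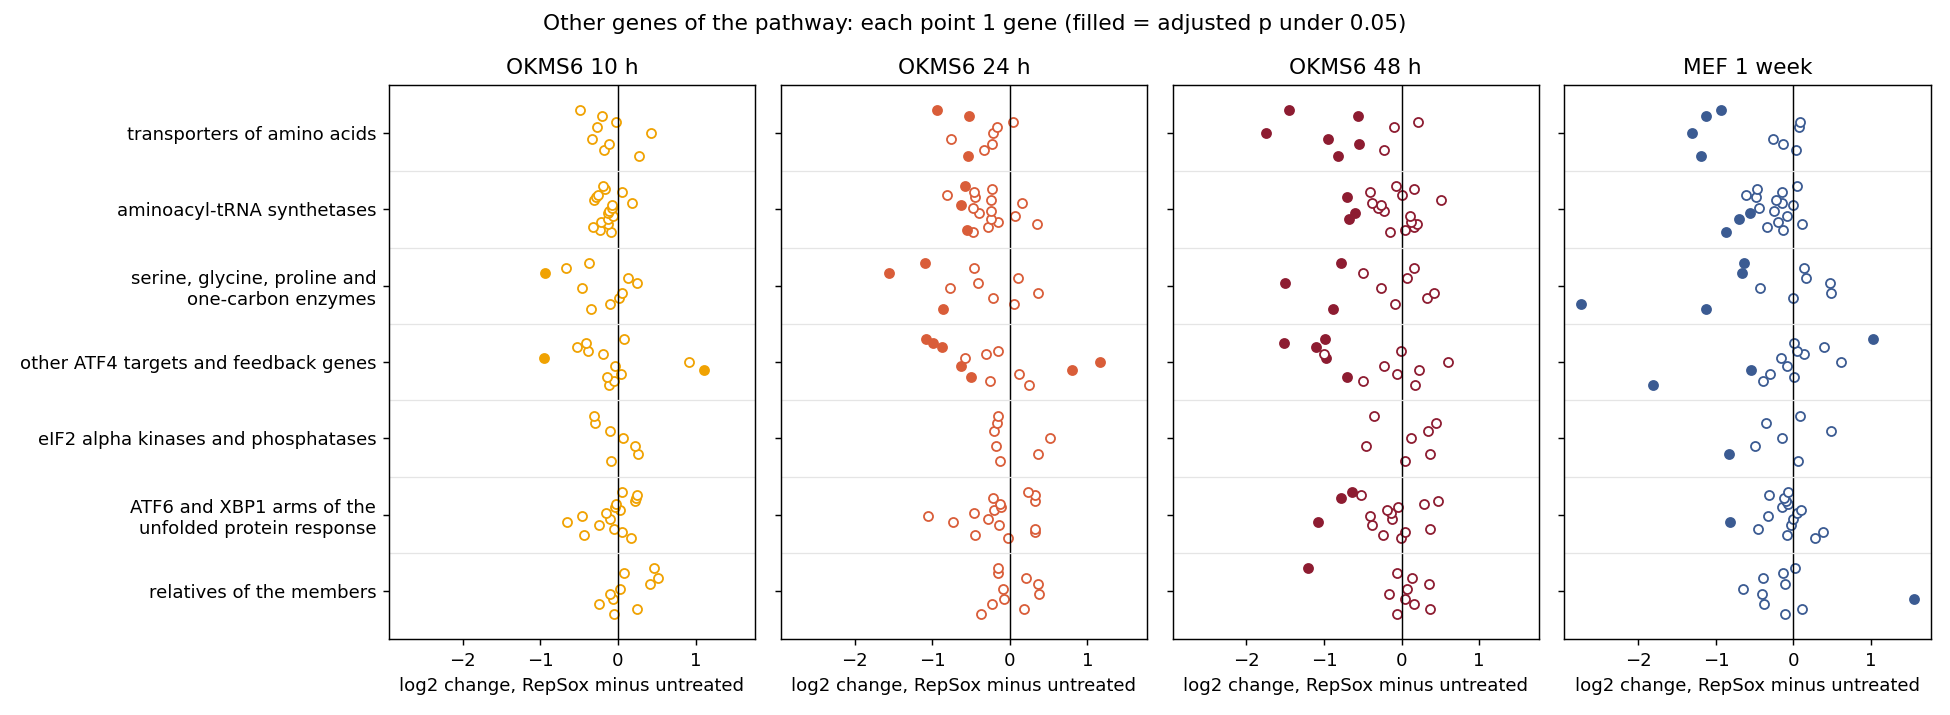
Log2 change with RepSox (treated minus untreated) of the other measured genes of the pathway, by list, in OKMS6 cells at 3 times and in MEFs. Filled points have an adjusted p under 0.05, and in the 3 lists of transporters, synthetases and metabolic enzymes every filled point lies below 0.

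Some other ATF4 targets and feedback genes rose and others fell. Of 13 measured, 1 rose and 1 fell at 10 h, 2 rose and 5 fell at 24 h, 5 fell at 48 h, and 1 rose and 2 fell in MEFs. Of all genes 2.53% rose at 10 h, 5.68% at 24 h, 6.94% at 48 h and 7.35% in MEFs. In MEFs 15.1% of all genes were called in either direction, so a count of 3 among 13 there is not read as a result about the list. Ddit4, an inhibitor of mTORC1 signalling, rose at 10 h (1.11 ± 0.16, limma adjusted p = 1.27e-04) and at 24 h (0.80 ± 0.16, limma adjusted p = 0.00169) and fell in MEFs (-0.55 ± 0.16, limma adjusted p = 0.0208). The growth factor gene Vegfa fell by 0.99 ± 0.18 at 24 h and by 1.52 ± 0.18 at 48 h, and the secreted glycoprotein gene Stc2 by 0.87 ± 0.20 at 24 h and by 1.10 ± 0.20 at 48 h. The lipoprotein receptor gene Vldlr, detected on no treated array at those times, was at least 1.68-fold lower at 24 h and at least 1.77-fold lower at 48 h, and it rose in MEFs (1.03 ± 0.21, limma adjusted p = 0.00102). Atf5, a relative of ATF4 that is also under translational control, fell in MEFs (-1.81 ± 0.37, limma adjusted p = 7.97e-04). Hmox1, heme oxygenase, fell at 10 h (-0.95 ± 0.27, limma adjusted p = 0.047), and the transcription factor gene Cebpb fell at 48 h (-0.71 ± 0.15, limma adjusted p = 0.00153). The Hmox1 call was lost on leaving out any 1 of the 6 arrays. At 24 h 3 or 4 of the 13 fell when 1 array was left out, and 1 rose without untreated array 1 or treated array 2. In MEFs 1 fell without untreated array 2, untreated array 3 or treated array 1, and without both 48 h arrays numbered 3, 3 fell at 48 h.

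The eIF2 alpha kinases and phosphatases, which set the signal to ATF4, showed 1 call among 7 measured genes, Eif2ak2, which encodes the kinase PKR and was lower in treated MEFs (-0.83 ± 0.17, limma adjusted p = 0.00124). In OKMS6 cells 0 were called at any time (limma, with 0 at 10 h, 1 at 24 h and 1 at 48 h at an unadjusted p under 0.05). Of 16 genes of the ATF6 and XBP1 arms of the unfolded protein response, 0 were called at 10 h and 24 h (limma, 1 and 3 at an unadjusted p under 0.05). At 48 h 3 fell, the degradation genes Sel1l and Herpud1 (-0.78 ± 0.14 and -1.07 ± 0.24) and the transcription factor gene Xbp1 (-0.65 ± 0.16), a share close to the 16.0% of all genes called there in either direction, and in MEFs Herpud1 fell (-0.82 ± 0.24, limma adjusted p = 0.0181). Of 10 relatives of the members, such as other tribbles and sestrins, 0 were called at 10 h and 24 h (limma, 2 and 3 at an unadjusted p under 0.05), Trib2 fell at 48 h (-1.21 ± 0.25, limma adjusted p = 0.00108), and Cebpa rose in MEFs, at least 2.37-fold. Cebpa was detected only on the 3 treated MEF arrays, so it was not tested when 1 of them was left out, and the Herpud1 call in MEFs was lost without untreated array 2, untreated array 3 or treated array 3.

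Untreated OKMS6 cells, averaged over the 3 times, had 4 lower members and 1 higher member than R1, where 24.6% of all genes were lower and 25.9% higher (50.5% in either direction). Chac1 was lower (-2.32 ± 0.29, limma adjusted p = 2.62e-07), as was Ddit3 (-2.32 ± 0.35, limma adjusted p = 4.44e-06). Trib3 was lower (-0.94 ± 0.18, limma adjusted p = 7.06e-05), and Atf3, detected on no OKMS6 array, was at least 1.54-fold lower (limma adjusted p = 0.00521). Phgdh was higher (0.92 ± 0.33, limma adjusted p = 0.0211), a call lost without R1 array 1 (0.108) and under median scaling (0.0616). Without the 2 dim V6.5 arrays Asns and Sesn2 were also lower and Psat1 also higher, where 65.6% of all genes were called.

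Against MEFs, untreated OKMS6 cells had 3 lower members and 1 higher member, where 27.2% of all genes were lower and 32.0% higher (59.2%). Ddit3 averaged 5.08 ± 0.25 at 10 h, 5.17 ± 0.12 at 24 h and 5.70 ± 0.17 at 48 h in OKMS6 cells, against 8.84 ± 0.11 in MEFs (SD, n = 3). That difference of -3.51 ± 0.35 was 11.4-fold (limma adjusted p = 3.49e-09), and no arrays of the groups overlapped. Nupr1 (-2.12 ± 0.15, limma adjusted p = 8.84e-12) and Chac1 (-1.71 ± 0.29, limma adjusted p = 1.60e-05) were also lower, and Psat1 was higher (1.10 ± 0.38, limma adjusted p = 0.0154), a call lost without MEF array 3 (0.0522). Trib3 was also lower without the 2 dim V6.5 arrays (-0.41, limma adjusted p = 0.00288). With arrays scaled to a common median in place of quantile normalization, the median of all genes in this comparison moved to 0.42. There 3 members were higher and 3 lower, where 63.2% of all genes were called.

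R1 cells had 2 higher and 2 lower members than MEFs, where 29.5% of all genes were higher and 28.1% lower (57.6%). Nupr1 was 9.61, 9.74 and 9.03 in R1, against 11.73, 11.84 and 11.83 in MEFs (-2.34 ± 0.19, limma adjusted p = 8.67e-11), with no overlap. Ddit3 was lower in R1 (-1.20 ± 0.43, limma adjusted p = 0.0192), Trib3 was higher (0.54 ± 0.21, limma adjusted p = 0.0333), and Atf3, detected on all R1 arrays and on no untreated MEF array, was at least 1.55-fold higher (limma adjusted p = 0.0274). Leaving out 1 array in turn gave 1 to 3 called members, 1 without MEF array 3 and 2 without R1 array 2 or 3. Nupr1 was called in all 6 of these fits, where 53.2% to 53.9% of all genes were called. Asns and Psat1 were also higher in R1 and Phgdh also lower without the 2 dim V6.5 arrays, where 70.5% of all genes were called. Under median scaling, which put the median of all genes at 0.52, 6 members were higher and 1 lower, where 66.4% of all genes were called. The Ddit3 difference was then -0.11 (limma adjusted p = 0.833).

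In OKMS6 cells after 48 h with RepSox 7 of the 10 members were lower than in R1 and none higher, where 20.1% of all genes were lower and 20.5% higher (40.6% in either direction). Chac1 was 5.82, 5.56 and 5.78 in the treated cells, against 10.07, 9.97 and 10.03 in R1, which is 19.8-fold lower (-4.30 ± 0.36, limma adjusted p = 3.2e-10). Nupr1 was 4.06-fold lower (limma adjusted p = 2.45e-09), Ddit3 3.84-fold lower (limma adjusted p = 6.32e-04) and Asns 1.81-fold lower (limma adjusted p = 6.30e-05). Trib3 was at least 3.45-fold lower and Atf3 at least 1.57-fold lower, with neither detected on a treated array. Sesn2 was lower as well (-0.60 ± 0.19, limma adjusted p = 0.0128), and its call was lost on leaving out R1 array 3 (0.0925) or treated array 1 (0.0664). Without the 2 dim V6.5 arrays Phgdh was higher in the treated cells (0.94, limma adjusted p = 0.000275), and 1 member was likewise higher with no background correction, a replicate block, limma array weights or only these groups in the fit. This comparison shares its treated arrays with the 48 h comparison above and its R1 arrays with the other R1 comparisons.

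**Figure D5:**
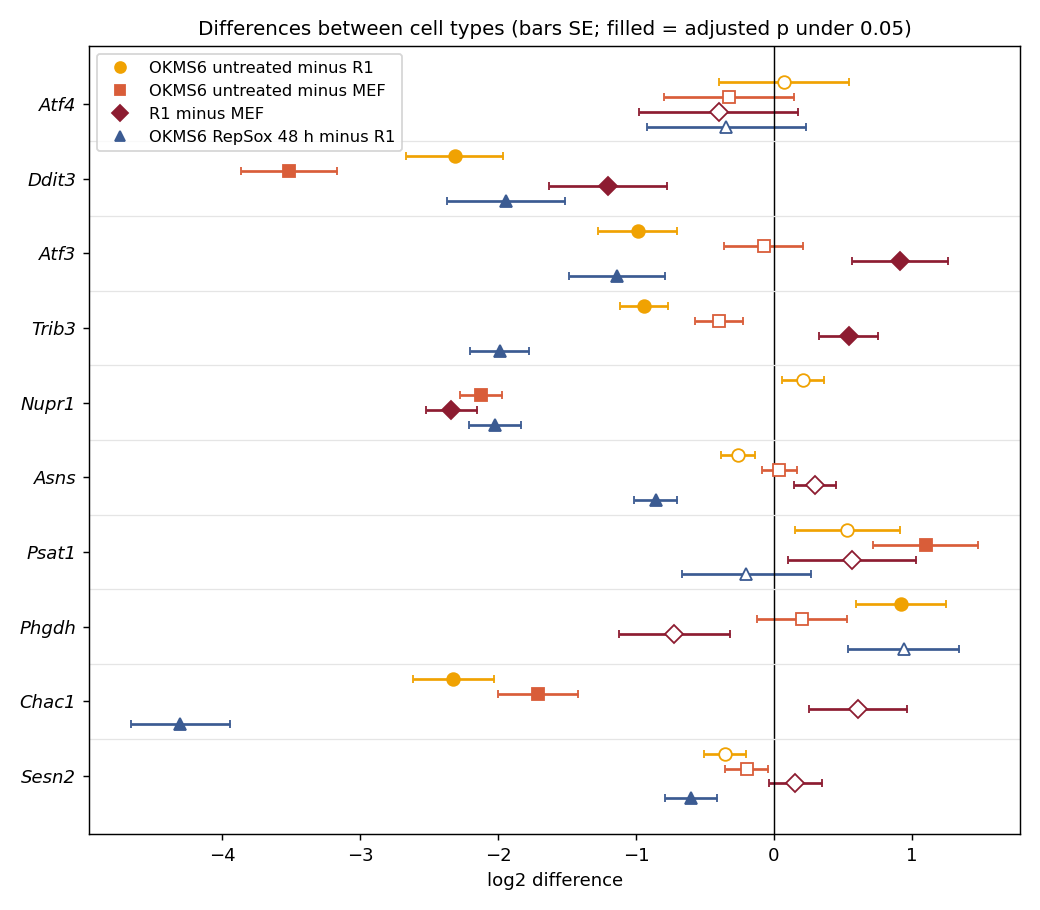
Log2 difference (with SE) of each gene between untreated OKMS6 cells and R1, untreated OKMS6 cells and MEFs, R1 and MEFs, and OKMS6 cells with RepSox for 48 h and R1. Filled symbols have an adjusted p under 0.05, and Chac1 in treated OKMS6 cells lies farthest from 0 at -4.30.

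The order of the 10 groups differed between genes. Chac1 was highest in R1 (10.02 ± 0.05), followed by V6.5 (9.69 ± 0.47) and untreated MEFs (9.41 ± 0.09), whose arrays overlapped in neighbouring pairs. Untreated OKMS6 cells (7.39 ± 0.08 to 7.95 ± 0.09) and treated MEFs (7.67 ± 0.29) lay in the middle, and treated OKMS6 cells (5.35 ± 0.31 to 5.72 ± 0.14) were lowest. Nupr1 was highest in untreated MEFs (11.80 ± 0.06), which overlapped no other group, and its 3 lowest groups were the treated OKMS6 cells. Psat1 was highest in untreated OKMS6 cells at 24 h (11.71 ± 0.05), and Phgdh in untreated OKMS6 cells at 10 h (8.13 ± 0.08), although each group overlapped its neighbour in the Phgdh order down to the treated OKMS6 cells at 24 h, the eighth in it. For Atf4 every neighbouring pair in the order overlapped.

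Across the 10 group means, Nupr1 and Chac1 had a Pearson correlation of 0.85 and Psat1 and Phgdh one of 0.76. Over the 9 group means without V6.5, in which both genes were lowest, these were 0.83 and 0.24. Trib3 was closest to the mean of the other 9 members (0.92), followed by Chac1 (0.65) and Nupr1 (0.61), and Phgdh was the farthest (-0.16). Without V6.5 these were 0.92, 0.91, 0.80 and -0.51. Outside the members, the 10 genes whose group means were most like the mean standardized profile of the members were Erfe (0.91), Arhgef2 (0.89), Fut4 (0.87), Samd8 (0.85), Ubtd1 (0.84), Cd276 (0.84), Plpp2 (0.83), Tmem214 (0.83), Akr1b8 (0.82) and Rxylt1 (0.82). These points share arrays, cell lines and normalization, and the correlations are descriptions over 10 groups. Without V6.5 the 10 genes had correlations of 0.77 to 0.96.

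For the iPS line the platform cannot be told apart from the cells, since no other group was run on it, and no test was made. All 10 genes were detected on the 3 iPS arrays, with log2 levels, normalized among those arrays, of 9.13 ± 0.27 for Atf4, 6.53 ± 0.14 for Trib3, 8.07 ± 0.18 for Atf3, 11.71 ± 0.36 for Nupr1 and 9.60 ± 0.11 for Chac1 (SD, n = 3). As percentiles among the probes shared by both platforms, Chac1 stood at 88.6 in iPS cells and at 95.5 in R1, and Nupr1 at 97.7 in iPS cells and at 93.3 in R1. Atf3 stood at 77.1 in iPS cells, at 64.5 in R1 and at 46.7 in untreated MEFs. Phgdh and Sesn2 were read from other probes on the iPS platform, and the Sesn2 probe used there was detected on only 2 of the 30 arrays of the main platform.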

How the data were processed

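Total RNA of 11 groups of 3 arrays was measured on 2 Illumina platforms. Per the labels' protocols, Trizol was used for extraction and an Ambion kit for biotinylated cRNA. The authors deposited, per the file headers, an intensity on a linear scale and a detection p-value for each probe and array. They also deposited a processed intensity table with no stated method, whose column medians were 10.7 on the main platform and 17.6 on the iPS platform. It was used as an alternative. The submitters' processing notes name BeadStudio without a version.

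Scanner intensities were corrected and quantile normalized with neqc (limma 3.58.1, R 4.3.3, offset 16, background inferred from detection p-values) and taken to log2 here. Detection (p under 0.05) was required on 3 or more of 30 arrays, which kept 15635 probes, and each of 10614 genes was read from its brightest probe, named by the platform annotation. One model with 10 group means (20 residual degrees of freedom) was fitted with lmFit and eBayes, with two-sided p-values and Benjamini-Hochberg adjustment over all genes. Fold bounds set the brighter group's mean against the lowest detected signal on each dim array. Array signal and the number of arrays limit the precision.

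On data simulated for the 24 h comparison over 10614 genes, 72% of changes of 1 and 98% of changes of 2 on the log2 scale were recovered, with 14 unchanged genes called. These rates are over 100 changed genes of each size and do not describe genes with a large error. Atf4 at 24 h differed by -1.30 with an SE of 0.58 and was not called. The members, lists, tests and the rule for named genes were chosen with earlier results of these data known. That rule names all 10 members, and for each other list up to 4 called genes with the smallest adjusted p per RepSox comparison, plus the 10 genes nearest the members' mean profile. Same-numbered treated and untreated arrays deviated together with correlations of -0.32 to 0.34, not above 0.1 in every pair, so the numbers were not taken to pair the samples. Alternatives were the normalization, background, detection filter, probe rule, processed table, V6.5 arrays, array weights, groups in the fit, replicate block and leaving out each array. List counts without single arrays and correlations without V6.5 were added after seeing the data.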

Additional observations from a re-analysis of the deposited data

Results flagged for a closer look

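Among the 10 members, the RepSox effect of Nupr1 differed between times in OKMS6 cells by the F test (adjusted p = 5.38e-05), with log2 changes of -1.19 at 10 h, -2.87 at 24 h and -2.96 at 48 h. Of all genes 8.80% were called by that test. Other genes of the pathway lists also differed between times. Only list genes already named for a call with RepSox were looked at, a choice that favours such differences, so they are descriptions. Slc6a9 (adjusted p = 8.03e-06) changed by 0.43 at 10 h, -0.21 at 24 h and -1.75 at 48 h. Gpt2 (0.00271), Sel1l (0.0045), Slc1a4 (0.00519), Trib2 (0.0082) and Xbp1 (0.0286) had their lowest value at 48 h as well, as had Vegfa (0.0142). Vldlr (0.0199) was detected on no treated array at 24 h or 48 h, so its changes at those times are bounds with no order. Ddit4 (0.0358) was higher with RepSox at 10 h (1.11) and 24 h (0.80), and its difference of 0.22 at 48 h was not called.

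The RepSox change in MEFs at 1 week minus that in OKMS6 cells at 48 h differed from 0 for several list genes. Of all genes 16.0% were called in this comparison. The list genes looked at were again only those named for a call with RepSox, which favours such differences. It was -2.65 for Aldh1l2 (-2.74 in MEFs, -0.08 in OKMS6 cells), -1.98 for Atf5 (adjusted p = 0.00814), -1.19 for Eif2ak2, -0.77 for Ddit4 and -0.56 for Slc7a3 (adjusted p = 0.0479). It was 1.98 for Gpt2 (0.47 in MEFs, -1.51 in OKMS6 cells), 1.52 for Vegfa, 1.5 for Stc2, 1.23 for Trib2 (adjusted p = 0.0175), 0.72 for Cebpb and 0.65 for Sel1l (adjusted p = 0.0256). The fitted differences of 2.02 for Vldlr and 1.51 for Cebpa involve groups with no detected array, Vldlr in treated OKMS6 cells and Cebpa in all OKMS6 cells and untreated MEFs, so their sizes are not exact. Time of treatment and cell type cannot be told apart in these differences.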

How the results depend on the processing

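The 34 called member changes were recomputed 666 times in all, of which 621 kept direction and call, 45 lost the call and 0 reversed. Of 1800 recomputed values of members, 54 changed sign, 0 of them called before or after, 11 under median scaling and 23 on leaving out 1 array. Without V6.5 replicates 1 and 3, the counts of called members were 4 at 10 h, 7 in MEFs, 2 for the RepSox effect between times, 5 for untreated OKMS6 cells between times, 2 for MEFs against OKMS6 cells at 48 h, 8 for OKMS6 against R1 and 7 for R1 against MEFs, where 12.7%, 28.5%, 26.5%, 45.2%, 33.4%, 65.6% and 70.5% of all genes were called. With limma array weights they were 5 at 10 h, 7 at 24 h, 7 in MEFs, 5 and 7 between times (RepSox effect, then untreated cells), 4 for MEFs against OKMS6 cells, 8 for OKMS6 against R1, 7 for OKMS6 against MEFs and 9 for R1 against MEFs, where 26.2%, 46.2%, 39.6%, 49.6%, 61.6%, 45.6%, 68.8%, 78.4% and 74.5% of all genes were called. With only the groups compared in the fit they were 4 at 10 h, 2 and 5 between times, 2 for MEFs against OKMS6 cells, 8 for OKMS6 against R1 and 9 for R1 against MEFs, where 11.8%, 26.8%, 52.3%, 32.3%, 68.7% and 74.3% were called. Median scaling, which moved the median of all genes to -0.18 at 24 h, left 1 at 10 h and 1 for untreated cells between times and gave 7 for R1 against MEFs, and no background correction left 1 for untreated cells between times. The processed table, with the 2 exchanged 48 h columns, gave 1 at 10 h, 2 at 24 h, 0 at 48 h and 0 in both tests between times. Over all genes at 48 h it called 0. Without both 48 h columns numbered 3 that table gave 2 at 10 h, 3 at 24 h and 4 at 48 h. It then gave 1 for the RepSox effect and 2 for untreated cells between times, and 8.81% of all genes were called at 48 h. Scanner values without both 48 h arrays numbered 3, added after seeing the data, gave 1 for MEFs against OKMS6 cells. On leaving out 1 array in turn, counts ranged from 2 to 2 at 10 h, 2 to 3 at 24 h, 4 to 4 at 48 h, 4 to 4 in MEFs, 1 to 1 and 1 to 2 between times, 0 to 1 for MEFs against OKMS6 cells, 5 to 6 for OKMS6 against R1, 3 to 5 for OKMS6 against MEFs, 1 to 3 for R1 against MEFs and 6 to 7 for treated OKMS6 cells against R1. Asns at 48 h lost its call under median scaling (0.255) and with the mean over its probes (0.125), and Nupr1 at 10 h under median scaling (0.0658); the cause was not tested. With a replicate block in the fit, counts with RepSox stayed at 2, 4, 4 and 4, and those for OKMS6 against R1 and MEFs and for treated OKMS6 cells against R1 became 6, 5 and 8. Same-numbered arrays correlated above 0.1 in every pair at 48 h alone (0.10 to 0.34). Signal limits Atf3 and Trib3, which sat at or near background in treated OKMS6 cells.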
